A study of Mus musculus with 24 samples.

Results

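CC chemokines are small secreted proteins with adjacent cysteines near their start that draw leukocytes along a gradient by binding G protein-coupled receptors of the CCR family. Here 9 of their genes were followed in mouse kidney, namely Ccl2, Ccl5, Ccl6, Ccl7, Ccl8, Ccl9, Ccl12, Ccl20 and Ccl28, taken by symbol from the 54532 gene identifiers of the count files. Of the 9, 8 had higher RNA levels in knockout than in wild-type kidneys after both 12 and 2 weeks of Western diet, and no knockout library overlapped a wild-type library of the same duration for these 8. Ccl28 was the exception: it fell in knockout kidneys at 12 weeks and did not pass the test at 2 weeks.

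The series compared kidneys of mice that lack Lrp2 in proximal tubule cells with those of wild-type littermates, with 6 bulk RNA-seq libraries in each of 4 groups, to ask how the knockout kidney changes under this diet. Lrp2 encodes megalin, which takes up filtered proteins at the apical membrane of these cells. The groups were knockout at 12 weeks, wild type at 12 weeks, knockout at 2 weeks and wild type at 2 weeks, and all 4 received the Western diet, so no group shows a kidney without it. The labels also carry the name LRP2-SM22 for the line without explaining it; the sources used here give no Cre driver, strain, age or sex. Nor do they state whether each library is a separate mouse, so p-values measure the spread between libraries.

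The libraries held, in megacounts (M) of total counts, 11.3 to 15.2 M in knockout and 11.4 to 14.5 M in wild type at 12 weeks, and 16.3 to 25.2 M in knockout and 15.6 to 34.1 M in wild type at 2 weeks. In counts per megacount of the scaled library (CPM), Lrp2 itself averaged 323 ± 73.1 in knockout and 1880 ± 382 in wild type at 12 weeks (SD, n = 6 each), and 352 ± 142 in knockout and 2000 ± 261 in wild type at 2 weeks, so each library followed its genotype label with no overlap. The 2 durations carry different naming schemes in the file headers. Gm42418, a predicted gene chosen after its values were seen, had 71635 to 424892 counts in knockout and 86843 to 401812 counts in wild-type libraries at 12 weeks and 0 counts in every library at 2 weeks. Duration and library set therefore cannot be told apart. All 11 markers of kidney tubule and glomerulus were detected in every group.

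In the kidney, as in other tissues, CC chemokines are made by stressed epithelium, fibroblasts, endothelium and resident or recruited leukocytes, and inflammatory members are induced by cytokines and by pattern-recognition receptors through transcription factors such as NF-kappaB. Ccl2, Ccl7, Ccl8 and Ccl12 are the monocyte chemoattractant proteins, of which Ccl2, Ccl7 and Ccl12 act on Ccr2 and mouse Ccl8 acts on Ccr8. Ccl6 and Ccl9 are rodent myeloid chemokines that act on Ccr1, Ccl5 attracts T cells and monocytes through Ccr1 among other receptors, Ccl20 is the chemokine ligand of Ccr6, and Ccl28 is an epithelial chemokine for Ccr10 and Ccr3. In bulk tissue, more cells of a type and more RNA per cell cannot be told apart.

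Of the 9 genes, 7 lie in 2 groups on chromosome 11 of the mm10 build (GRCm38), by the GENCODE M21 annotation. Ccl2 (chr11:82035571-82037453), Ccl7 (chr11:82045712-82047525), Ccl12 (chr11:82101845-82103400) and Ccl8 (chr11:82115185-82116799) stand on the plus strand within 79.6 kb between the first and last gene start. Ccl5 (chr11:83525778-83530518), Ccl9 (chr11:83572919-83578636) and Ccl6 (chr11:83587882-83593087) lie on the minus strand, starting 1494.9 to 1557.5 kb from the start of Ccl2. Ccl20 (chr1:83116766-83119167) and Ccl28 (chr13:119623819-119654359) lie on the plus strand of other chromosomes. Each interval is the whole gene, exons, introns and untranslated regions included.

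The exons of Ccl2 lie inside the opposite-strand gene Gm17268, none of them under its exons, and Gm17268 had 0 counts in every library. The exons of Ccl6 likewise lie inside E230016K23Rik, none under its exons, and that gene had 1326 counts over all 24 libraries. No other member overlaps a gene on the opposite strand. The sources used here do not say whether counting used strand, so reads from unspliced opposite-strand RNA cannot be told apart from Ccl2 or Ccl6 reads. Among annotated transcripts, the longest stretch that 2 members share is 25 bases, between Ccl6 and Ccl9, followed by 23 bases between Ccl2 and Ccl7 and 17 bases each for Ccl2 with Ccl12 and Ccl7 with Ccl8.

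Promoter sequences of 6 members, Ccl6, Ccl8, Ccl9, Ccl12, Ccl20 and Ccl28, were found in the RefSeq table for GRCm38.p6, running from 250 bases before to 50 bases after the gene start. All 6 are shown, so that the members that rose at both durations can be set beside Ccl28, which did not. Capitals mark matches, on either strand, to the kappaB consensus, to TATAAA or to the AP-1 motif TGANTCA. Ccl20 (chr1:83116516-83116815, plus strand) holds a kappaB consensus match 80 to 71 bases before its start. Ccl9 (chr11:83578587-83578886, minus strand) holds one 35 to 26 bases before its start, a TGANTCA match, and 3 TATAAA matches, of which the pair nearest the start overlap on opposite strands. Ccl12 (chr11:82101595-82101894, plus strand) and Ccl8 (chr11:82114935-82115234, plus strand) each hold one TATAAA match, 31 to 26 and 32 to 27 bases before the start. Ccl6 (chr11:83593038-83593337, minus strand) holds no match to any motif searched. Ccl28 (chr13:119623569-119623868, plus strand) holds a TGANTCA match after its start.
Ccl20: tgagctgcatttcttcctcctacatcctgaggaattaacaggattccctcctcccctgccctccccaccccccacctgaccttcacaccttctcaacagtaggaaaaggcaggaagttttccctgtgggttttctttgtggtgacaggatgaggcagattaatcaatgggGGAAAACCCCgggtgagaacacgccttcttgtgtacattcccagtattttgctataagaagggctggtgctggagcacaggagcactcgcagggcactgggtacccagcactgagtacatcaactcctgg
Ccl9: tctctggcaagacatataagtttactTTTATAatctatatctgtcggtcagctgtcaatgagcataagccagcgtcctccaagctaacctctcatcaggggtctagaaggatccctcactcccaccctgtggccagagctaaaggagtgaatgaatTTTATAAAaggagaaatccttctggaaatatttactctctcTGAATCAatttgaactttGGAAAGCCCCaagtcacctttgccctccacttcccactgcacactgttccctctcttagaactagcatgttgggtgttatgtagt
Ccl12: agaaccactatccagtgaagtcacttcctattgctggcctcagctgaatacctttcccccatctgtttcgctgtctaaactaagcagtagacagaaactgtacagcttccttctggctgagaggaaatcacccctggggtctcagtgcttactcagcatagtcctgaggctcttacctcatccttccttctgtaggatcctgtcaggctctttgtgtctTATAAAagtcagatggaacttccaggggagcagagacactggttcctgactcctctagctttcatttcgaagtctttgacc
Ccl8: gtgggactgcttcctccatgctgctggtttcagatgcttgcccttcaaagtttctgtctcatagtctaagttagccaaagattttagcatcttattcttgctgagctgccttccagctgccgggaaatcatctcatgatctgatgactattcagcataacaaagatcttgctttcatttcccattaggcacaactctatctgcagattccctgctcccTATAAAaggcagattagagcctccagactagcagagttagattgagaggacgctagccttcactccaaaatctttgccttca
Ccl6: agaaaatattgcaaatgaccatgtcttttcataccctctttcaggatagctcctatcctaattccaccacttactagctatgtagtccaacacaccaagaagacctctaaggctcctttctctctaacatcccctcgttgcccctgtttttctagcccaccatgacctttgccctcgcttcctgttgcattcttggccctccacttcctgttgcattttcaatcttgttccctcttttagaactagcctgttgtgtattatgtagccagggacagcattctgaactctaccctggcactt
Ccl28: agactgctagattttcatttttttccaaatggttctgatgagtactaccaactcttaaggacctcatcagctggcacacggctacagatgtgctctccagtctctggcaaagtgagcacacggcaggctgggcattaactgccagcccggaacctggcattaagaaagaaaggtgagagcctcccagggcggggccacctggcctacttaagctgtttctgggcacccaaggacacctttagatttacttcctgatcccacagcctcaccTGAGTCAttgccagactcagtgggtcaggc
Across the 32851 RefSeq promoters of the same length, 8.46% held a kappaB consensus match, 13.6% a TATAAA match and 7.81% a TGANTCA match. The STAT motif TTCNNNGAA, found in 8.3% of promoters, an interferon response element consensus, found in 3.44%, and the C/EBP motif TTGCNNAA, found in 10.8%, had no match in the 6 member promoters. These are matches of letters in these windows only.

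All 9 members passed the filter on low counts, so each was tested among 17286 genes with edgeR's quasi-likelihood test and Benjamini-Hochberg adjustment over all of them. Ccl2, Ccl7, Ccl8, Ccl12 and Ccl20 passed it only through the knockout groups, their wild-type counts being too low. The counts of called and separate members below therefore include genes that entered the test through the group where they were high. At 12 weeks 8 members were called higher and 1 lower in knockout kidneys, where 20.7% of all tested genes were called higher and 17.7% lower. At 2 weeks 8 were called higher and 0 lower; DESeq2 also gave 8 and 0, and 8 members had an unadjusted p under 0.05. The background there was 18.2% called higher and 13.4% lower. The median log2 fold change of the 9 members was 2.78 at 12 weeks and 3.52 at 2 weeks, beside medians of 0 and -0.01 for all tested genes. Knockout libraries lay wholly above wild-type libraries for 8 members at each duration, as they did for 10.1% of all tested genes at 12 weeks and 10.3% at 2 weeks.

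**Figure D1:**
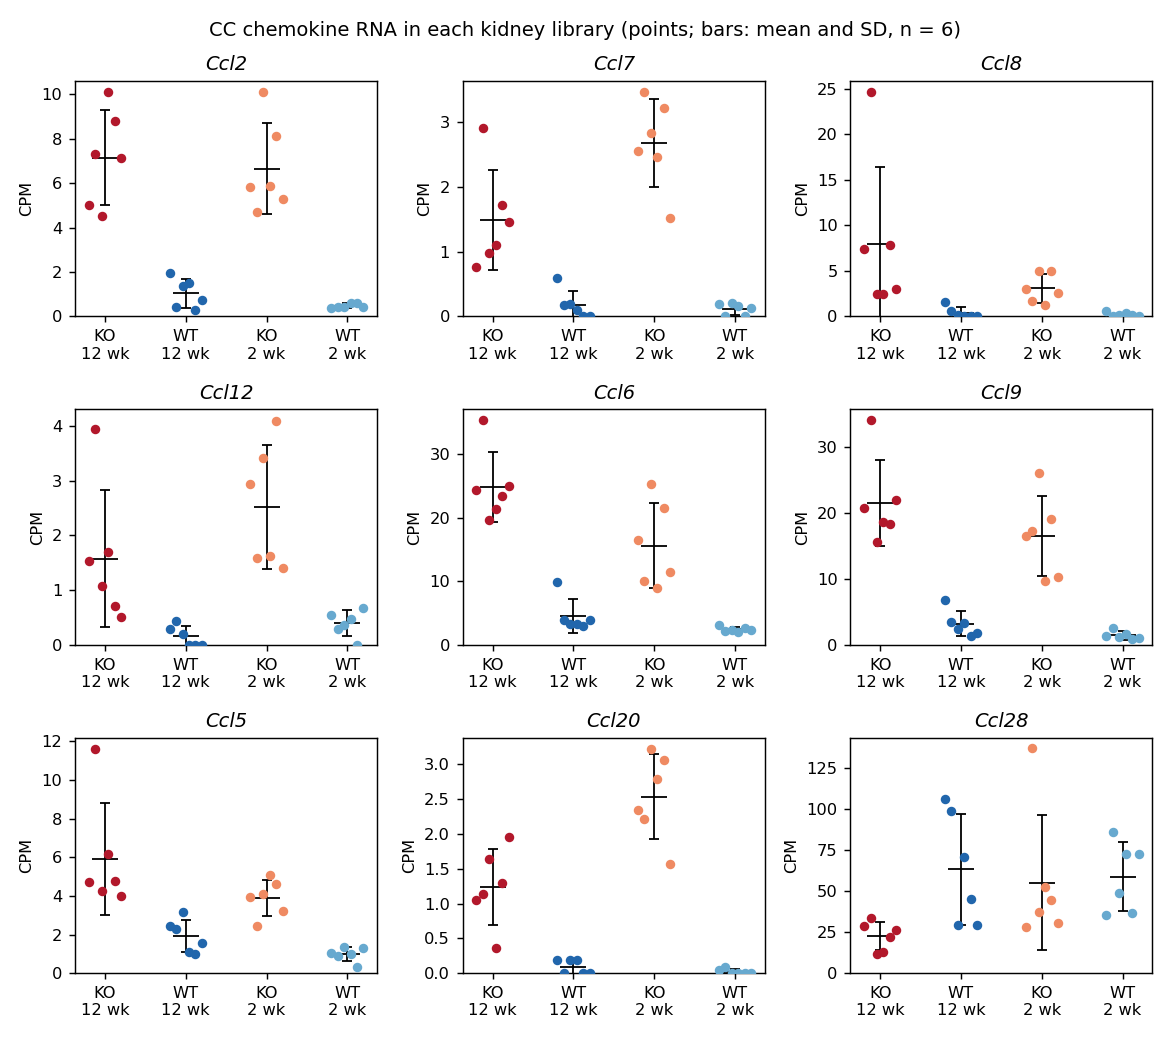
RNA level of each member in CPM (vertical axes, linear from 0, each with its own scale) in knockout (KO) and wild-type (WT) kidneys at 12 weeks and then at 2 weeks. Points are the 6 libraries of a group and bars give mean and SD; knockout points lie above wild-type points of the same duration in 8 panels, and in the Ccl28 panel the groups overlap.

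The monocyte chemoattractants rose together. Ccl2, the main ligand that draws Ccr2-bearing monocytes into inflamed kidney, ran from 4.51 to 10.1 CPM (median 7.22) in knockout and from 0.305 to 1.95 CPM (median 1.07) in wild-type libraries at 12 weeks. At 2 weeks it ran from 4.70 to 10.1 CPM (median 5.85) in knockout and from 0.361 to 0.619 CPM (median 0.437) in wild-type libraries. The knockout libraries overlapped between the 2 durations, and the wild-type levels at 12 weeks spread more widely than those at 2 weeks. In log2 terms the difference was 2.78 ± 0.35 (SE) at 12 weeks (edgeR adjusted p = 4.7e-05) and 3.84 ± 0.24 at 2 weeks (edgeR adjusted p = 3.37e-09), and the ratios of mean CPM were 6.77 and 13.9.

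Ccl7, the neighbour of Ccl2 and another Ccr2 ligand, had a lower level per length in knockout kidneys at 12 weeks, 1.85 CPM per kb beside 6.27 for Ccl2. Its knockout libraries held 0.767 to 2.90 CPM (median 1.28) and its wild-type libraries 0 to 0.586 CPM (median 0.135) at 12 weeks; at 2 weeks the ranges were 1.51 to 3.45 CPM (median 2.69) in knockout and 0 to 0.208 CPM (median 0.14) in wild type. The wild-type side rests on few reads, 11 counts summed over 6 libraries at 12 weeks and 16 at 2 weeks, with 2 libraries at 0 in each group. On the log2 scale knockout exceeded wild type by 3.06 ± 0.57 at 12 weeks (edgeR adjusted p = 0.000772) and 4.39 ± 0.40 at 2 weeks (edgeR adjusted p = 2.15e-07). Without wild-type replicate 1 the 12-week value was 3.89.

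Ccl12, a rodent Ccr2 ligand, held 0.508 to 3.94 CPM (median 1.30) in knockout and 0 to 0.443 CPM (median 0.0985) in wild-type libraries at 12 weeks. At 2 weeks it held 1.40 to 4.09 CPM (median 2.28) in knockout and 0 to 0.683 CPM (median 0.414) in wild type. The groups did not overlap at either duration, although 3 wild-type libraries at 12 weeks and 1 at 2 weeks had no read. Its log2 fold change was 3.27 ± 0.71 at 12 weeks (edgeR adjusted p = 0.00234), or 3.92 without wild-type replicate 2, and 2.65 ± 0.41 at 2 weeks (edgeR adjusted p = 8.5e-05).

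Ccl8 varied the most among the knockout libraries at 12 weeks, where its highest level was 10.1 times its lowest. The 6 knockout values were 2.42, 2.46, 3.05, 7.39, 7.90 and 24.6 CPM, against 0, 0, 0.0838, 0.197, 0.62 and 1.56 CPM in wild type. At 2 weeks Ccl8 ran from 1.21 to 5.02 CPM (median 2.81) in knockout and from 0.0487 to 0.555 CPM (median 0.171) in wild-type libraries. A single knockout library, replicate 2, lay far above the rest at 12 weeks, and the lowest knockout libraries still lay above the highest wild-type library. The fitted log2 change was 4.28 ± 0.91 at 12 weeks (edgeR adjusted p = 0.00341) and 3.58 ± 0.48 at 2 weeks (edgeR adjusted p = 3.07e-05). The 12-week value was 3.52 without knockout replicate 2 and 5.38 without wild-type replicate 1, and the 2-week value was 4.21 without wild-type replicate 1.

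The 4 chemoattractants were also set against each other per length of exon in knockout kidneys. For this, raw counts were summed over the libraries of a group and divided by exon length. The ratio of Ccl8 to Ccl12 was 5.42 in knockout kidneys at 12 weeks and 1.28 at 2 weeks. Single libraries gave 1.51 to 11.7 at 12 weeks and 0.781 to 1.93 at 2 weeks, so the ranges overlap. For Ccl7 over Ccl2 the ratio was 0.29 in knockout kidneys at 12 weeks (0.156 to 0.562 by library) and 0.563 at 2 weeks (0.4 to 1.04). These ratios were not tested.

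Ccl6 and Ccl9, the rodent myeloid chemokines, rose at both durations. Per length of exon their mean levels were 13.8 and 7.11 CPM per kb in knockout kidneys at 12 weeks, beside 15.6 for Ccl8. Ccl6 ran from 19.6 to 35.3 CPM (median 23.8) in knockout and from 3.05 to 9.96 CPM (median 3.56) in wild-type libraries at 12 weeks, and from 8.91 to 25.2 CPM (median 14) in knockout and from 1.96 to 3.19 CPM (median 2.35) in wild type at 2 weeks. One wild-type library at 12 weeks, replicate 1, had 9.96 CPM while the other 5 stayed at or below 3.99 CPM. The log2 fold change was 2.47 ± 0.27 at 12 weeks (edgeR adjusted p = 2.94e-05) and 2.69 ± 0.26 at 2 weeks (edgeR adjusted p = 2.25e-06).

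Ccl9 followed Ccl6 across the groups. It ran from 15.7 to 34.1 CPM (median 19.8) in knockout and from 1.42 to 6.83 CPM (median 2.91) in wild type at 12 weeks, and from 9.65 to 26.1 CPM (median 17.0) in knockout and from 0.872 to 2.58 CPM (median 1.28) in wild type at 2 weeks. Every knockout library of either duration lay above every wild-type library of either duration. In log2 terms the difference was 2.77 ± 0.32 at 12 weeks (edgeR adjusted p = 4.52e-05) and 3.52 ± 0.30 at 2 weeks (edgeR adjusted p = 6.04e-07). Per length of exon, the summed raw counts of Ccl9 were 0.512 of those of Ccl6 in knockout and 0.417 in wild-type kidneys at 12 weeks. At 2 weeks the values were 0.618 in knockout and 0.343 in wild-type kidneys.

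Ccl5, which attracts T cells, monocytes and eosinophils, showed the smallest fold change among the 8 members that rose. It ran from 3.99 to 11.6 CPM (median 4.76) in knockout and from 1.02 to 3.15 CPM (median 1.95) in wild type at 12 weeks. At 2 weeks it ran from 2.43 to 5.06 CPM (median 4.02) in knockout and from 0.335 to 1.35 CPM (median 1.03) in wild type. At 12 weeks knockout replicate 2, at 11.6 CPM, stood apart from the other 5 libraries, which reached at most 6.17 CPM. On the log2 scale knockout exceeded wild type by 1.63 ± 0.32 at 12 weeks (edgeR adjusted p = 0.00109) and 1.99 ± 0.26 at 2 weeks (edgeR adjusted p = 1.03e-05).

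Ccl20, the epithelial chemokine that draws Ccr6-bearing lymphocytes and dendritic cells, had the largest fold change of the 9 at 2 weeks and almost no reads in wild-type kidneys. It ran from 0.367 to 1.96 CPM (median 1.21) in knockout and from 0 to 0.197 CPM (median 0.0933) in wild type at 12 weeks, and from 1.57 to 3.21 CPM (median 2.56) in knockout and from 0 to 0.0975 CPM (median 0) in wild type at 2 weeks. Summed counts were 103 in knockout and 6 in wild type at 12 weeks and 328 in knockout and 4 in wild type at 2 weeks, with 3 and 4 wild-type libraries at 0. A library at 0 allows up to 3 counts, a limit that covers counting error only. The fitted log2 change was 3.61 ± 0.60 at 12 weeks (edgeR adjusted p = 0.000312) and 6.12 ± 0.45 at 2 weeks (edgeR adjusted p = 2.13e-08), the second being 6.73 without wild-type replicate 2. The size of this change rests on those few wild-type counts.

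Ccl28, a chemokine of mucosal and secretory epithelium, behaved unlike the others. Per length it had the highest mean level of the 9 in wild-type kidneys, at 13.1 CPM per kb at 12 weeks and 12.1 at 2 weeks. It ran from 12.1 to 33.9 CPM (median 24.1) in knockout and from 29.5 to 106 CPM (median 58.1) in wild type at 12 weeks, and from 28.4 to 137 CPM (median 41.0) in knockout and from 35.8 to 86.1 CPM (median 60.8) in wild type at 2 weeks. The groups overlap at both durations, at 12 weeks only through the highest knockout library and the lowest wild-type libraries. At 12 weeks Ccl28 fell by 1.45 ± 0.40 on the log2 scale (edgeR adjusted p = 0.0149). At 2 weeks the log2 fold change was -0.08 ± 0.42 (edgeR adjusted p = 0.916), with a 95% interval of -0.90 to 0.75, and knockout replicate 2 alone, at 137 CPM, exceeded every wild-type library.

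**Figure D2:**
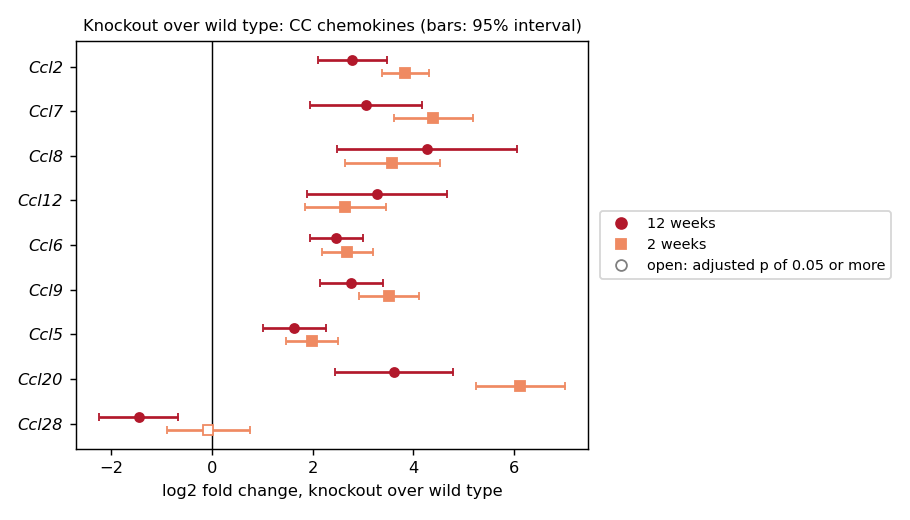
Log2 fold change of each member, knockout over wild type (horizontal axis), with 95% intervals, at 12 and at 2 weeks; filled symbols passed an edgeR adjusted p of 0.05 and open symbols did not. The 8 other members lie between 1.63 and 6.12, and Ccl28 lies at -1.45 at 12 weeks and -0.08 at 2 weeks.

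The high libraries were partly the same ones. Knockout replicate 2 at 12 weeks had the highest level in its group for 7 of the 9 members, all but Ccl2 and Ccl20, and wild-type replicate 1 at 12 weeks had the highest for 6, namely Ccl2, Ccl6, Ccl7, Ccl8, Ccl9 and Ccl28. That knockout library also had the highest summed levels in its group of the markers of monocytes and macrophages, dendritic cells, T and natural killer cells, B and plasma cells, eosinophils and mast cells, and fibroblasts and mural cells, and the lowest of the injured proximal tubule markers. The wild-type library had the highest summed levels in its group of the markers of monocytes and macrophages, T and natural killer cells, B and plasma cells, fibroblasts and mural cells, and adipocytes, and the lowest of the kidney tubule and glomerulus markers. The part of these markers in the member levels was not tested; every genotype call of the 9 members at 12 weeks held without the one and without the other. Without the knockout library the log2 fold changes at 12 weeks were 2.78 for Ccl2, 1.33 for Ccl5, 2.35 for Ccl6, 2.77 for Ccl7, 3.52 for Ccl8, 2.60 for Ccl9, 2.77 for Ccl12, 3.64 for Ccl20 and -1.60 for Ccl28.

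The genotype difference was then compared between durations. No member passed the test of the difference, 12 minus 2 weeks, where 0.174% of all tested genes (30) did; DESeq2 also called 0 members, and the smallest edgeR adjusted p was 0.361, for Ccl20. At an unadjusted p under 0.05 there were 3 members, Ccl2, Ccl20 and Ccl28, all with a lower log2 fold change at 12 weeks. The differences were -1.05 ± 0.43 for Ccl2, -2.42 ± 0.99 for Ccl20 and -1.38 ± 0.59 for Ccl28 on the log2 scale. The remaining 6 ran from -1.31 for Ccl7 to 0.71 for Ccl8. The call of Ccl28 at 12 weeks only is thus not shown to differ from its 2-week value (edgeR adjusted p of the difference = 0.414).

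Within a genotype, the groups of all 9 overlapped between 12 and 2 weeks in both genotypes. Among all tested genes 14.3% did not overlap in knockout and 16% in wild type. In knockout kidneys Ccl6 was called higher at 12 than at 2 weeks by 0.66 (edgeR adjusted p = 0.0451), and Ccl20 and Ccl28 were called lower, with log2 changes of -1.03 (edgeR adjusted p = 0.0217) and -1.28 (edgeR adjusted p = 0.0254). Among all tested genes 17.7% were called higher and 16.1% lower in that comparison. In wild-type kidneys 4 members were called higher at 12 weeks, Ccl2 by 1.15, Ccl5 by 0.95, Ccl6 by 0.87 and Ccl9 by 1.13, and none lower, beside 15.8% higher and 14.7% lower among all tested genes. These duration calls rest on few libraries: the Ccl6 call in knockout kidneys was lost in 8 of 12 leave-outs, that of Ccl20 without knockout replicate 4 at 12 weeks, and that of Ccl28 without knockout replicate 2 at 2 weeks (-0.78) or replicates 3 or 4 at 12 weeks. In wild type, leaving out replicate 1 at 12 weeks ended all 4 calls, and other single leave-outs ended those of Ccl2, Ccl5 and Ccl6.

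Some cell type markers were also called between the durations. Among all tested genes 17.7% were called higher and 16.1% lower in knockout, and 15.8% higher and 14.7% lower in wild type. In knockout kidneys 5 of 6 markers of injured proximal tubule were called lower at 12 than at 2 weeks and 0 higher, with a median log2 change of -1.3. Markers called higher numbered 6 of 6 for dendritic cells (median 0.92), 7 of 11 tested for T and natural killer cells (median 1.1) and 5 of 6 for B and plasma cells (median 2.43), with 0 lower in each of these lists, and 2 of 14 for monocytes and macrophages with 1 lower (median 0.26). At least 1 call in the injured tubule, dendritic, T and natural killer, and B and plasma cell lists was lost when a single library was left out. In wild-type kidneys 0 of 14 monocyte and macrophage markers and 0 of 11 tested T and natural killer cell markers were called by edgeR in either direction (medians 0.46 and 0.31); DESeq2 called 2 of the first list higher and 1 of the second lower, as many as had an unadjusted edgeR p under 0.05. There 1 of 6 dendritic markers was called higher, 2 of 6 fibroblast and mural markers were called higher, and 1 of 6 injured tubule markers was called higher and 1 lower. These dendritic and injured tubule counts, and the monocyte and macrophage counts in knockout, lay near or below the shares of all tested genes. The part of these markers in the duration calls of the members was not tested.

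The order of mean CPM over the groups differed by member. Ccl2, Ccl5, Ccl6, Ccl8 and Ccl9 were highest in knockout at 12 weeks, then knockout at 2 weeks, wild type at 12 weeks and wild type at 2 weeks. Ccl7 and Ccl20 were highest in knockout at 2 weeks, then knockout at 12 weeks and wild type at 12 and 2 weeks, and Ccl12 had the same order of knockout groups with wild type at 12 weeks last. For Ccl28 the order was wild type at 12 weeks, wild type at 2 weeks, knockout at 2 weeks and knockout at 12 weeks. Of neighbours in these orders, only the lower knockout group and wild type at 12 weeks had separate ranges, and only for Ccl2, Ccl7, Ccl9 and Ccl20; all other neighbours overlapped.

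Set per length of exon, the make-up of the 9 differed between the genotypes. Ccl28 took a mean of 8.22% of the summed CPM per kb in knockout and 61.5% in wild-type kidneys at 12 weeks. At 2 weeks it took 22.2% in knockout (11.8% to 48.4% by library, median 16.4%) and 71.1% in wild-type kidneys. Its own mean level at 2 weeks was 11.4 CPM per kb in knockout and 12.1 in wild type. Ccl6 took 25.1% in knockout and 12.7% in wild type at 12 weeks. Ccl8 took 22.0% in knockout (10.4% to 41.4% by library) and 2.72% in wild type at 12 weeks. The 8 genes without Ccl28 summed to a mean level of 54.6 ± 27.5 CPM per kb in knockout and 7.92 ± 4.61 in wild type at 12 weeks, and 39.9 ± 13.1 in knockout and 4.63 ± 1.06 in wild type at 2 weeks (SD, n = 6 each). For these 8 genes the lowest knockout sum, 28.4 CPM per kb, was above the highest wild-type sum, 16.5 CPM per kb. Within a duration this follows from the separate ranges of each of the 8. With Ccl28 included, the sums overlapped at 12 weeks, at 36.1 to 116 CPM per kb in knockout and 11.3 to 38.3 in wild type. At 2 weeks the sums of all 9 ran from 34.8 to 65.3 in knockout and from 10.5 to 21.8 in wild type.

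**Figure D3:**
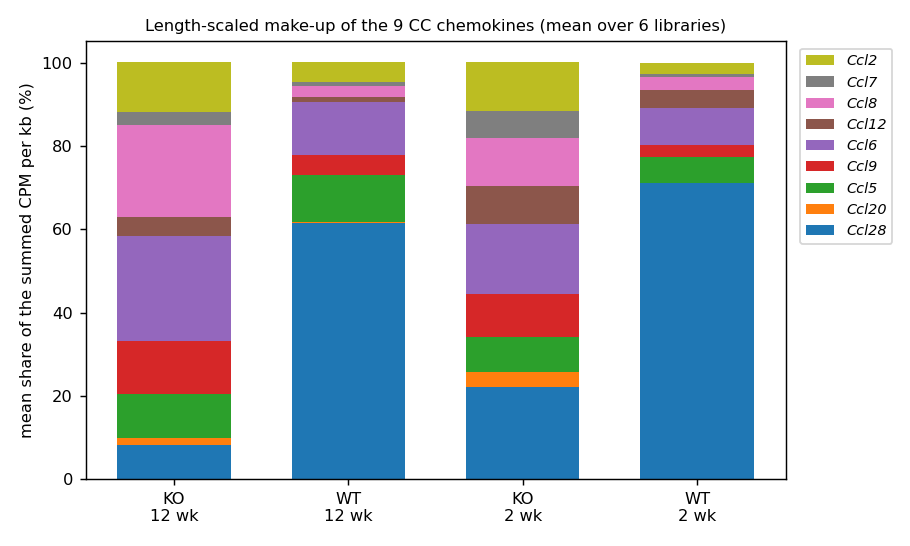
Mean share of each member in the summed CPM per kb of the 9 genes (vertical axis, %), as stacked bars for knockout and wild type at 12 weeks and then at 2 weeks (6 libraries per bar). Ccl28 takes 8.22% in knockout against 61.5% in wild type at 12 weeks, and 22.2% in knockout against 71.1% in wild type at 2 weeks. Its own mean level at 2 weeks is 11.4 CPM per kb in knockout and 12.1 in wild type.

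Of 15 further CC chemokine symbols listed, which match 19 gene identifiers, 7 passed the filter. At 12 weeks 2 were called higher and 0 lower, at 2 weeks 3 higher and 0 lower, with median log2 fold changes of 0.53 and 0.62. Among all tested genes 20.7% were called higher at 12 weeks and 18.2% at 2 weeks. Ccl17 and Ccl22, ligands of Ccr4 made largely by dendritic cells and macrophages, rose at both durations. Ccl17 averaged 3.29 ± 0.959 CPM in knockout and 0.146 ± 0.194 in wild type at 12 weeks (log2 fold change 4.47 ± 0.53), and 1.33 ± 0.189 CPM in knockout and 0.238 ± 0.279 in wild type at 2 weeks (2.25 ± 0.46). Wild-type replicate 1 held 28 of the wild-type Ccl17 counts at 2 weeks (0.777 CPM, the other 5 libraries at most 0.244), and the log2 fold change without it was 3.30 ± 0.42. Ccl22 changed by 3.38 ± 0.39 at 12 weeks and 2.63 ± 0.38 at 2 weeks. Ccl3, a Ccr1 ligand, was called only at 2 weeks (0.86, edgeR adjusted p = 0.0487), with 0.77 at 12 weeks (edgeR adjusted p = 0.133), and its difference between durations was -0.08 ± 0.52. Its 2-week call was lost in 8 of 12 leave-outs.

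The other 4, Ccl4, Ccl21a, Ccl25 and Ccl27a, were not called at either duration. Ccl4, which lies beside Ccl3, had log2 fold changes of 0.25 ± 0.41 and 0.62 ± 0.32 at 12 and 2 weeks. Ccl25, a thymic and gut epithelial chemokine, had -0.17 ± 0.14 and -0.26 ± 0.14, and Ccl27a, an epithelial Ccr10 ligand like Ccl28, had -0.04 ± 0.19 and -0.23 ± 0.14. Ccl21a, which has near-identical copies whose reads may be split, had 0.53 ± 0.88 and 0.40 ± 0.92. Below the filter, Ccl11 (eotaxin) had 49 counts in knockout and 5 in wild type at 12 weeks and 59 in knockout and 19 in wild type at 2 weeks, summed over 6 libraries. The other identifiers below the filter, of Ccl1, Ccl19, Ccl21a, Ccl21b, Ccl21c, Ccl24, Ccl26 and Ccl27b, held between 0 and 43 counts per group.

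**Figure D4:**
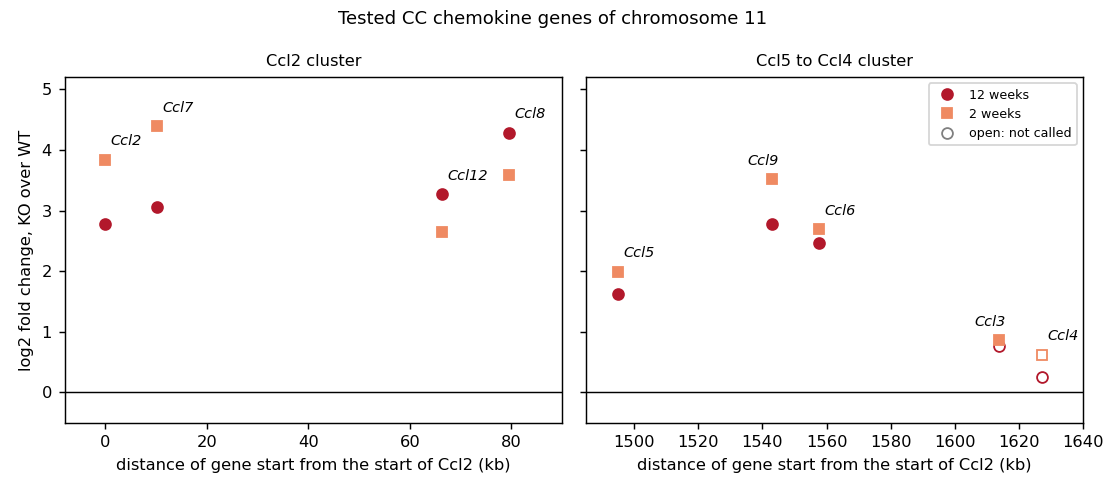
Log2 fold change, knockout over wild type (vertical axis), of the tested CC chemokine genes of chromosome 11 against the distance of each gene start from that of Ccl2 in kb, for 12 weeks (circles) and 2 weeks (squares); open symbols were not called. The 7 members lie between 1.63 and 4.39, and Ccl3 and Ccl4 at the far end lie between 0.25 and 0.86.

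The receptors of these ligands were examined next, since leukocytes carry them. Of 10 CC chemokine receptors, 7 passed the filter, and 6 were called higher and 0 lower at each duration. The shares of all tested genes called higher were 20.7% at 12 weeks and 18.2% at 2 weeks. The 2-week count of receptors was 5 with RLE scaling or DESeq2 and 5 to 6 with 1 library left out, the call of Ccr9 being the one lost. Ccr2, the receptor of Ccl2, Ccl7 and Ccl12, ran from 54.4 to 85.9 CPM (median 64.1) in knockout and from 12.3 to 15.3 CPM (median 13.9) in wild type at 12 weeks. At 2 weeks it ran from 30.5 to 65.3 CPM (median 45.6) in knockout and from 4.32 to 9.89 CPM (median 6.53) in wild type. Its log2 fold change was 2.33 ± 0.11 at 12 weeks (edgeR adjusted p = 5.81e-09) and 2.79 ± 0.23 at 2 weeks (edgeR adjusted p = 1.02e-06), with no overlap of the groups.

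Ccr1, the receptor of Ccl6, Ccl9 and Ccl5, changed by 2.29 ± 0.37 at 12 weeks and 3.79 ± 0.29 at 2 weeks. Ccr6, the receptor of Ccl20, held 0.661 to 4.99 CPM (median 1.33) in knockout and 0 to 0.586 CPM (median 0.0926) in wild type at 12 weeks, and 0.248 to 0.777 CPM (median 0.338) in knockout and 0 to 0.0833 CPM (median 0.0502) in wild type at 2 weeks. Its log2 fold changes were 3.29 ± 0.71 and 3 ± 0.55. Single libraries carried the 12-week value, which was 2.65 without knockout replicate 2 (4.99 CPM, the other 5 at most 1.39) and 4.12 without wild-type replicate 1 (0.586 CPM, the other 5 at most 0.266). In knockout kidneys Ccr6 was called higher at 12 than at 2 weeks by 2.09 ± 0.48 (edgeR adjusted p = 0.0012) while its ligand Ccl20 was called lower (-1.03); without knockout replicate 2 at 12 weeks the Ccr6 change was 1.45 ± 0.42 (edgeR adjusted p = 0.0102). Ccr7, which guides dendritic and naive T cells and binds none of the 9 members, changed by 2.37 ± 0.41 and 1.77 ± 0.32.

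Ccr9, a Ccl25 receptor, changed by 1.25 ± 0.36 at 12 weeks (edgeR adjusted p = 0.0133) and 0.88 ± 0.33 at 2 weeks (edgeR adjusted p = 0.0495), the 2-week call being lost in 9 of 12 leave-outs, and 18.8% of its exonic length lies under exons of an opposite-strand gene. Ccr10, the receptor of Ccl28, was not called, with 1.68 ± 0.83 at 12 weeks and -0.27 ± 0.26 at 2 weeks. It had 18 counts in knockout and 4 in wild type at 12 weeks and 114 in knockout and 133 in wild type at 2 weeks, and it lies inside the opposite-strand gene Cntnap1. Ccr3, Ccr4 and Ccr8 stayed below the filter. Ccr8, the receptor of mouse Ccl8, had 35 counts in knockout and 3 in wild type at 12 weeks. Of those 35, knockout replicate 2 held 18, and no other library of that group held more than 6. At 2 weeks Ccr8 had 17 counts in knockout and 0 in wild type. Of 5 atypical receptors, which bind chemokines without classical signalling, Ackr3, Ackr4 and Ccrl2 were tested and 0 were called by edgeR or DESeq2 or had an unadjusted p under 0.05 at either duration. Their log2 fold changes were 0, -1.18 and -0.01 at 12 weeks and -0.15, -0.43 and -0.31 at 2 weeks, in that order, and Ackr4 lies inside Acad11 on the opposite strand. Ackr1 and Ackr2 stayed below the filter.

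**Figure D5:**
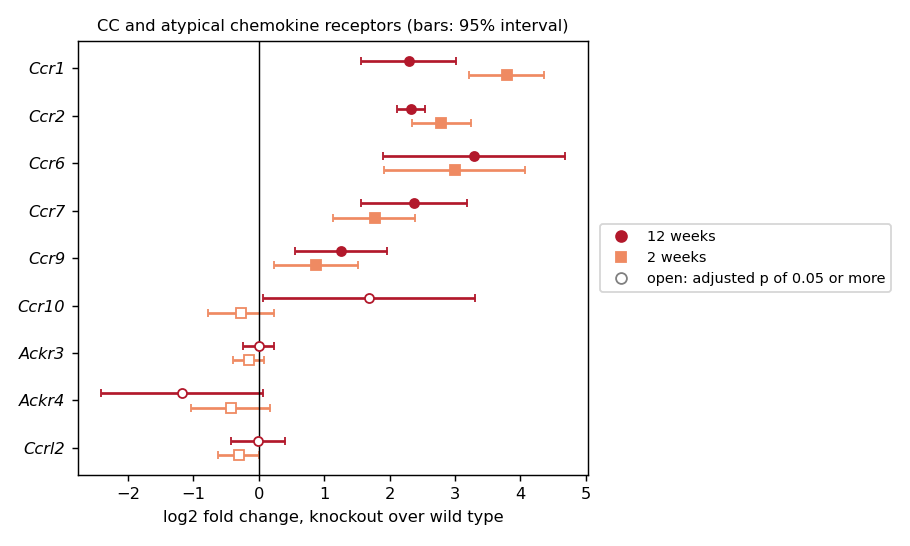
Log2 fold change, knockout over wild type (horizontal axis), with 95% intervals, of CC chemokine receptors and atypical receptors at 12 and at 2 weeks; filled symbols passed an edgeR adjusted p of 0.05. Ccr1, Ccr2, Ccr6, Ccr7 and Ccr9 lie between 0.88 and 3.79, and Ccr10, Ackr3, Ackr4 and Ccrl2 have open symbols.

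Among all tested genes, 20.7% were called higher and 17.7% lower at 12 weeks, and 18.2% higher and 13.4% lower at 2 weeks. Of 15 genes that carry signals from chemokine receptors in leukocytes, 12 were called higher and 0 lower at 12 weeks. At 2 weeks 13 were called higher and 0 lower, and the medians were 1.44 at 12 and 1.59 at 2 weeks. The smallest adjusted p values at 12 weeks belonged to the Src-family kinase Fgr (1.78), the phosphoinositide 3-kinase subunit Pik3r5 (2.20) and the exchange factor Vav1 (2.07), among those reported here. At 2 weeks they were Pik3r5 (2.18), Fgr (2.11), the Rac activator Dock2 (1.77) and the haematopoietic GTPase Rac2 (1.95). Of 24 genes in pathways that induce CC chemokines, inhibitors of NF-kappaB among them, 22 were tested. At 12 weeks 20 were called higher and 0 lower, and at 2 weeks 21 higher and 0 lower, with medians of 0.98 and 0.96. Relb, a subunit of NF-kappaB, changed by 1.67 at 12 and 1.89 at 2 weeks, Nfkb2, its partner, by 1.37 and 1.33, and the transcription factor Stat3 by 0.81 and 0.98. Tnfrsf1a, a receptor of tumour necrosis factor, changed by 0.61 and 0.82, and the pattern-recognition receptor Tlr2 by 1.96 and 2.13. Of the length of Nfkb2 exons, 11.6% lies under exons of an opposite-strand noncoding gene and 6.5% under exons of the opposite-strand gene Psd.

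Most markers of monocytes, macrophages and dendritic cells moved with the 8 members that rose. Beside the markers called here and below, 20.7% of all tested genes were called higher and 17.7% lower at 12 weeks. At 2 weeks these shares were 18.2% and 13.4%. Of 14 markers of monocytes and macrophages, 13 were called higher at each duration, while Mertk had -0.24 at 12 weeks (edgeR adjusted p = 0.0621) and was lower at 2 weeks (-0.44). Their summed level ran from 697 to 1410 CPM in knockout and from 210 to 437 CPM in wild type at 12 weeks, and from 505 to 1180 CPM in knockout and from 203 to 257 CPM in wild type at 2 weeks. Lyz2 changed by 3.04 and 3.54 at 12 and 2 weeks, the 12-week value being 3.8 without wild-type replicate 1. Csf1r changed by 0.48 and 0.50, with 15.1% of its exonic length under exons of the opposite-strand gene Hmgxb3. Dendritic cell markers were called higher in 5 of 6 at each duration and summed to 59.8 to 123 CPM in knockout and 26.6 to 45.6 in wild type at 12 weeks, and to 45.0 to 64.2 CPM in knockout and 23.7 to 30.5 in wild type at 2 weeks. Itgax changed by 1.64 and 1.65, and Zbtb46 by 0.21 and 0.11 without a call. None of these 20 markers was at 0 in a group. The part of these cells in the chemokine levels was not tested.

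Markers of lymphocytes and neutrophils were counted in the same way. Of 14 markers of T and natural killer cells, 11 were tested, and 9 were called higher at 12 weeks and 7 at 2 weeks; their sum ran from 25.0 to 126 CPM in knockout and from 5.48 to 14.6 CPM in wild type at 12 weeks, and from 14.1 to 27.1 CPM in knockout and from 6.77 to 11.4 CPM in wild type at 2 weeks. Cd4 changed by 2.67 and 2.19, and Lck by 2.18 and 1.46. Of 6 markers of B and plasma cells 2 were called higher at each duration; they summed to 58.3 to 1280 CPM in knockout and 18.1 to 109 in wild type at 12 weeks, and to 49.1 to 311 CPM in knockout and 26.0 to 50 in wild type at 2 weeks, the 1280 CPM being knockout replicate 2. Jchain changed by 2.99 and 1.82, the 12-week value being 2.05 without knockout replicate 2. All 4 tested neutrophil markers of 8 listed were called higher at each duration, Csf3r by 1.74 and 2.11. At 12 weeks Ly6g and Elane were at 0 in knockout and Ly6g was at 0 in wild type. At 2 weeks 1 listed marker was at 0 in each genotype, in wild type Elane. The neutrophil markers summed to 6.62 to 16.1 CPM in knockout and 1.73 to 6.06 CPM in wild type at 12 weeks. At 2 weeks they summed to 11.3 to 25.1 CPM in knockout and 3.59 to 9.36 CPM in wild type.

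Among resident cells, all 6 markers of injured proximal tubule were called higher at each duration, summing to 2300 to 5260 CPM in knockout and 318 to 436 in wild type at 12 weeks and to 4930 to 10700 CPM in knockout and 443 to 598 in wild type at 2 weeks. Spp1 (osteopontin) changed by 3 and 4.15, and Havcr1 (Kim-1) by 4.26 (5.32 without wild-type replicate 2) and 3.42. Fibroblast and mural markers were called higher in 6 of 6 at 12 weeks and 5 of 6 at 2 weeks, and summed to 453 to 1120 CPM in knockout and 105 to 330 in wild type at 12 weeks. Of 11 kidney tubule and glomerulus markers, 1 was called higher and 6 lower at 12 weeks and 0 higher and 7 lower at 2 weeks, with Slc34a1, the phosphate transporter of the proximal tubule, at -0.82 and -0.64; 11.7% of its exonic length lies under exons of the opposite-strand gene Pfn3, as 18.8% of that of Spp1 lies under a same-strand predicted gene. Endothelial markers were called lower in 2 of 5 and higher in 0 at each duration. All 4 tested adipocyte markers and the single tested marker of eosinophils and mast cells were called higher at 12 weeks and none of them at 2 weeks, and the single tested adrenal cortex marker was not called. The call of each adipocyte marker was lost in 3 to 10 of 12 leave-outs. The part of these cells in the chemokine levels was not tested.

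The profile of each member over the 24 libraries was set against 7600 tested genes with a mean of at least 1 CPM. The measure was the root mean square difference between log2 CPM profiles centred on their means. Other members, predicted genes and genes that overlap an opposite-strand gene were left out, so nearest means nearest among the rest. The median difference over the 7600 genes ran from 0.89 for Ccl28 to 2.16 for Ccl8. Ccl2 and Ccl9 both had the collagen gene Col3a1 nearest, at 0.46 and 0.42 log2 units. Ccl5 had Rac2 (0.39) and the leukocyte integrin Itgb2 (0.41), Ccl6 had the protease Ctss (0.29) and Clec12a (0.36), and the second gene for Ccl9 was Lyz2 (0.42). Ccl20 was nearest to the cytokine Lif (0.5) and the chemokine Cxcl1 (0.62). Lif averaged 5.87 ± 0.518 CPM in knockout and 0.765 ± 0.289 in wild type at 12 weeks, and 13.3 ± 2.5 CPM in knockout and 0.596 ± 0.306 in wild type at 2 weeks. Its knockout mean was thus higher at 2 than at 12 weeks, as that of Ccl20 was. Ccl28 was nearest to Odc1 (0.49), the enzyme of polyamine synthesis, and Kif20b (0.55). Ccl7 was nearest to C4b (0.53) and Mrc1 (0.6), Ccl8 to Mmp3 (0.71) and Lyz2 (0.8), and Ccl12 to Fam167a (0.73) and Tlr2 (0.79). The libraries fall into the 4 groups, so a small difference describes a shared group pattern.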

How the data were processed

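Bulk RNA-seq of 24 mouse kidney samples was analysed. The deposited files hold raw counts per Ensembl gene, 1 library each; the authors used fastp, STAR 2.5 and HTSeq 0.6.1 with mm10, per the submitters' processing notes. Neither the annotation release nor the strand setting is given in the sources used here. Per the labels' protocols, a NEBNext Ultra kit made the libraries. GENCODE M21 matched 54495 of 54532 identifiers; the 37 others held at most 0.00528% of a library's counts.

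Groups follow the sample titles. The counts went into edgeR 4.0.16 under R 4.3.3, with TMM scaling, filterByExpr (minimum count 10, minimum total 15) and the robust, two-sided quasi-likelihood test, called at an adjusted p (Benjamini-Hochberg) under 0.05. Genotype comparisons used the 12 libraries of a duration; the difference between durations and the duration comparisons used all 24. The SE is the absolute log2 fold change over the square root of F. CPM are counts per megacount after TMM scaling; levels per kb divide by merged exon length. The script was tested on simulated data. All library pairs differed beyond sampling noise (lowest chi-square per degree of freedom 6.14).

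The members and gene lists were chosen with earlier results of these data known. Named genes are the members, Lrp2, the chemokine and receptor lists, up to 4 called genes per list of signalling genes and inducers and genotype comparison by adjusted p, up to 2 of each marker list by level, and the 2 genes most like each member; Mertk, Ly6g and Elane are named outside the rule, chosen after their values were seen. Some genes that the rule names are left out of the text. Alternatives were RLE and upper-quartile scaling, DESeq2 1.42.0, a filter at a mean of 1 CPM or none, a replicate block, other libraries in the fit, and each library left out. Depth limits the members under about 1 CPM, above all Ccl7, Ccl12 and Ccl20 in wild type. Figures were drawn with matplotlib 3.10.9.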

Additional observations from a re-analysis of the deposited data

Results flagged for a closer look

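In 8 of 36 member-by-group sets of 6 libraries, the highest library stood apart by a gap that exceeded Dixon's 95% critical share of the group's range. Chance gives about 1 in 20 sets if values are normally distributed. That was not checked for CPM on a linear scale, and the sets share libraries. Knockout replicate 2 at 12 weeks was that library for Ccl5 (11.6 CPM), Ccl6 (35.3 CPM), Ccl8 (24.6 CPM), Ccl9 (34.1 CPM) and Ccl12 (3.94 CPM). Wild-type replicate 1 at 12 weeks was that library for Ccl6 (9.96 CPM) and Ccl7 (0.586 CPM). Knockout replicate 2 at 2 weeks was that library for Ccl28 (137 CPM, next highest 52.7 CPM).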

How the results depend on the processing

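The genotype calls of all 9 members held in every run that left out 1 library at either duration, and with RLE or upper-quartile scaling, DESeq2, no filter and all 24 libraries in 1 fit. With a mean of at least 1 CPM required, 5 members were called higher at 12 weeks instead of 8, and 3 receptors at 2 weeks instead of 6. The others fell below that mean and were not tested, among them Ccl7, Ccl12 and Ccl20 at 12 weeks. Receptors called higher at 2 weeks numbered 5 with RLE scaling, DESeq2, all 24 libraries in 1 fit and the replicate block, and 7 without a filter. DESeq2 called 154 genes for the difference between durations, against 30 with edgeR; leaving out 1 library gave 22 to 56. Members called higher at 12 than at 2 weeks in knockout kidneys numbered 0 with upper-quartile scaling, without a filter and with the 12 knockout libraries alone, and 0 to 2 with 1 library left out; those called lower numbered 0 to 4. In wild type 2 members were called higher without a filter, and 0 to 4 members and 1 to 2 receptors with 1 library left out. The cause was not tested. Leaving out 1 library turned the sign of uncalled values: Ccl28 at 2 weeks (-0.57 to 0.06), the differences between durations of Ccl6 (-0.31 to 0.18) and, in the other direction, Ccl8 (-0.02 to 1.83), the duration change of Ccl2 in knockout (-0.02 to 0.26), and those of Ccl7 (-0.40 to 0.73), Ccl8 (-0.49 to 1.23) and Ccl28 (-0.11 to 0.25) in wild type. Residual correlations between libraries of equal replicate number ran from -0.1 to 0.17. Pairs of unequal number were not examined, so whether the numbers pair libraries cannot be decided from these values. With the replicate block 8 members were called higher and 1 lower at 12 weeks and 8 and 0 at 2 weeks, of 5950 and 5103 genes called. In that setting 21 genes were called for the difference between durations. The receptor Ccr9 was no longer called at 2 weeks (edgeR adjusted p = 0.117), and no member's call changed. Ccl7, Ccl12 and Ccl20 in wild type rest on 4 to 53 counts per group.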
